A study of Oryza sativa with 12 samples.

Results

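The comparison set drought-treated seedlings of N22 against drought-treated seedlings of IR64, rice (Oryza sativa) cultivars that the submitters describe as tolerant (N22) and sensitive (IR64) to drought. Its members were the 3 libraries titled N22 drought and the 3 titled IR64 drought, 6 of the 12 RNA sequencing libraries of the series, paired by their replicate number. The seedlings were 21 days old and stood for 6 h in 20% polyethylene glycol 6000 (PEG). The other 6 libraries, 3 of N22 and 3 of IR64, came from seedlings of the same age held for 6 h in reverse-osmosis water, and served to show whether a cultivar difference was also present without PEG. No transgene, mutation or second agent is given for any group. The labels name seedlings and no organ, and they do not say how many plants went into a library. The series calls the replicates biological but names no separate cultures or sowings, and each p-value therefore reflects only spread among these libraries. In the main fit that is the spread of N22 minus IR64 within same-numbered pairs, pooled over drought and water. It is not how far the libraries of a cultivar lie apart.

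PEG is a polymer too large to enter the cell wall space, and it lowers the water potential around the roots. Plants short of water raise the hormone abscisic acid (ABA). ABA bound by PYL receptors blocks clade A PP2C phosphatases, which frees SnRK2 kinases to phosphorylate bZIP factors that switch on ABA-responsive genes. Late embryogenesis abundant (LEA) proteins and dehydrins are among the best known products of that pathway. They are small hydrophilic proteins that protect membranes and enzymes in drying seeds and stressed leaves.

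Values are FPKM (fragments counted on a transcript, scaled to its length and to the size of the library) as the authors deposited them. Differences are N22 minus IR64 in log2(FPKM + 1), a scale that makes differences of low genes look smaller, and each comes with a standard error (SE). A row of the tables, usually 1 gene, was called higher or lower in N22 where limma's Benjamini-Hochberg adjusted p over 24545 rows was at most 0.05 and the difference at least 1. Same-numbered libraries of a treatment formed a pair block in that fit. A library listed 30625 to 32107 rows. Depth in reads is unknown, so no counting error is given. In a principal component analysis of the 6 drought libraries, component 1 (73.1% of variance) separated N22 (62.82 to 76.42) from IR64 (-77.26 to -65.91). Component 2 (16%) set the libraries numbered 3 of both cultivars (-49.63 in N22, -39.85 in IR64) apart from the other 4 (8.76 to 38.51). The LEA and dehydrin genes described below were lowest in the library numbered 3 of each cultivar under drought. Of the 33 called genes named below, 31 kept their call without the pair numbered 3, 31 without the pair numbered 2, and 25 without the pair numbered 1. With no pair block 27 of the 33 did. A fit of the 6 drought libraries alone kept 33 with the block and 15 without. With no block and 1 drought library left out, 17 to 32 were kept.

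Of 22944 tested rows that all 6 drought files list, 1554 (6.77%) were called, 860 of them higher in N22 (3.75%) and 694 lower (3.02%). The median difference of the rows called higher was 1.41 and of those called lower -1.46, against 0.002 over all rows. A difference of at least 2 was met by 193 rows higher and 171 rows lower in N22. The 3 N22 values lay wholly above the 3 IR64 values in 754 of the 860 rows and wholly below in 628 of the 694, while such separation was found in 27.6% of all rows (13.7% above and 13.9% below). Without the pair block 1423 rows (6.2%) were called. Before adjustment 9845 of the 22944 rows had a p below 0.05.

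Much of the cultivar difference was also there in water. Between the water libraries, which enter the same fit and share its estimate of the spread, 1311 of the same rows (5.71%) were called, 650 higher (2.83%) and 661 lower (2.88%) in N22. Rows called higher in N22 in both treatments numbered 485, which is 56.4% of the drought list and 74.6% of the water list. Rows called lower in both numbered 507, or 73.1% of the drought list and 76.7% of the water list. Among rows called under drought, 94.3% of the higher and 99.1% of the lower ones had a difference of the same sign in water. Whether a cultivar difference itself differed between PEG and water was tested as a difference of the contrasts, and 129 rows (0.562%) were called, 116 positive (0.506%) and 13 negative (0.0567%). That count depended on the pairing. With no replicate block 28 rows (0.122%) were called, 24 positive and 4 negative. With 1 block shared by both treatments 23 positive and 6 negative rows were called. Without single pairs of libraries the positive count ran from 31 (without the pair numbered 1 under drought) to 237 (without the pair numbered 3 under drought), through 51 without pair 2 and 32 to 34 without a water pair. The negative count ran from 0 to 71 in the same fits.

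**Figure D1:**
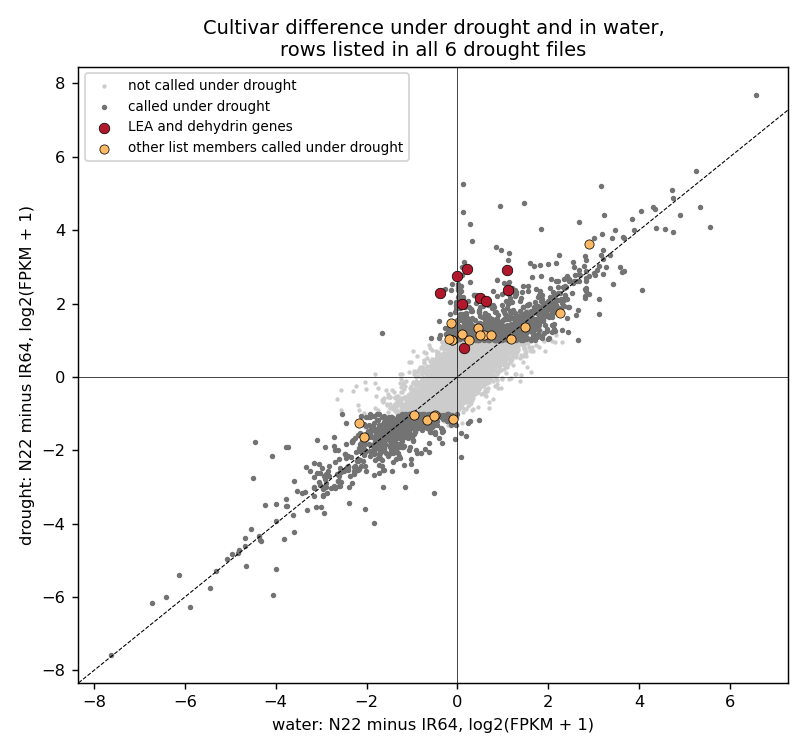
Difference N22 minus IR64 in log2(FPKM + 1), under drought (vertical axis) against water (horizontal axis), for the 22944 tested rows listed in all 6 drought files; the dashed line marks equal differences. Most called rows lie along the line, and 8 of the 9 LEA and dehydrin genes (red) lie between 1.99 and 2.93 under drought, well above it.

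Rows listed in all 3 files of one cultivar and in none of the other stood apart. There were 1212 such rows for N22, of which 544 passed the filter on low values and 485 were called, and 1076 for IR64, of which 462 passed and 416 were called. Over all 24545 rows the calls came to 2804 (11.4%). Being absent from the other cultivar's files puts these rows at 0 there, so the counts describe the listing and carry no further support. The rows were low, with a median of 3.32 FPKM in N22 for the rows of N22 and 2.76 FPKM in IR64 for the rows of IR64, against 10.1 FPKM for rows in all 6 files. Of the called ones, 202 of N22 and 168 of IR64 carried no locus name. Reads of both cultivars were aligned to 1 genome, RGAP 7.0, and what sequence differences between the cultivars contribute was not tested. No member of the gene lists below belonged to these rows. Another 592 tested rows were listed in some libraries of a cultivar only, and 349 of them were called.

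In all, 29 gene lists with 309 members found in the files were read in this comparison. Of their 288 tested rows, 22 were called higher and 7 lower in N22, 10.1% against 6.77% over all rows. The lists were chosen with earlier results of these data known, so the higher share is no independent support. The list of LEA proteins and dehydrins gave 8 of the 22 higher calls. The list rows were more abundant than the rest, with a median of 35.7 FPKM against 10.2. Without the pair block 17 were called higher and 6 lower. In 15 of the 29 lists no row was called. The plot of all list members shows where the called ones lie.

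**Figure D2:**
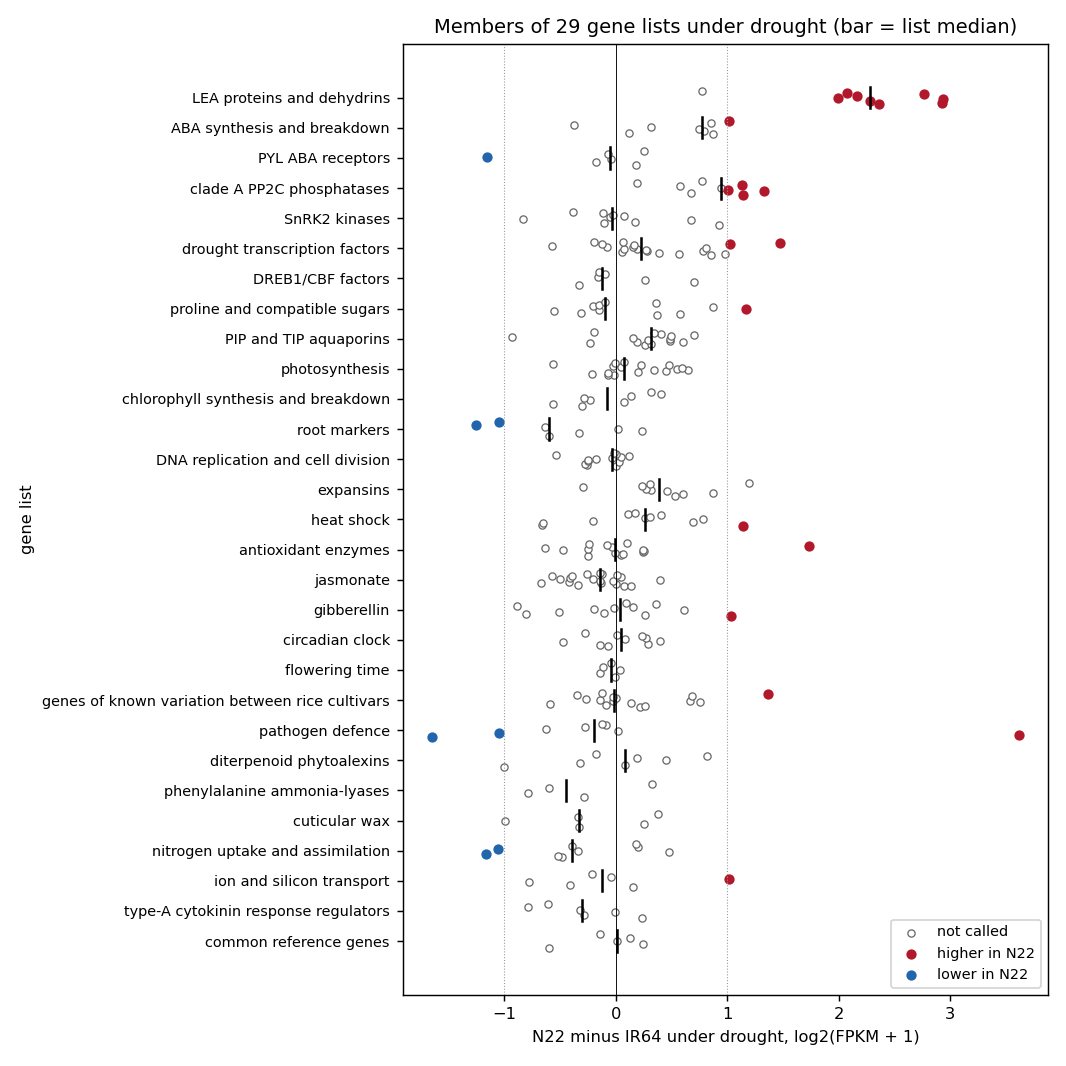
Difference N22 minus IR64 under drought in log2(FPKM + 1) for each tested member of the 29 lists (1 point a row of the tables; vertical bars are list medians; dotted lines mark a difference of 1). LEA proteins and dehydrins, with a median of 2.28, lie to the right of the other lists, whose medians run from -0.59 to 0.95.

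The genes for LEA proteins and dehydrins were several-fold more abundant in N22 than in IR64 under PEG. Of 9 genes tested, 8 were called higher in N22 and none lower, against 3.75% of all rows called higher. The median difference over the 9 was 2.28, against 0.002 over all rows. In water 2 of the 9 were called, both higher in N22, and the median was 0.22. For 7 of the 9 the N22 values lay wholly above those of IR64 under drought, against 13.7% of all rows. All 8 stayed called with no pair block, and 8 were called without the pair numbered 3. With no block and single drought libraries left out, 5 were called without N22 number 1, N22 number 2 or IR64 number 3, 7 without IR64 number 1, 8 without IR64 number 2 and 9 without N22 number 3. A fit of the 6 drought libraries alone with no block called 1 of them, RAB16D.

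The RAB16 dehydrins are encoded by a cluster of neighbouring genes on chromosome 11. They resemble each other, and how reads shared between copies were assigned is not given in the sources used here. RAB16A (LOC_Os11g26790) had 2358, 3502 and 949 FPKM in the N22 drought libraries numbered 1, 2 and 3, and 455, 729.7 and 172 FPKM in the IR64 ones. The lowest N22 library lay above the highest IR64 library, and the library numbered 3 was the lowest of its cultivar. The difference was 2.36 (SE 0.15, adjusted p 3.82e-05). In water RAB16A stood at 4.26, 7.55 and 1.43 FPKM in N22, against 1.86, 1.80 and 0.339 FPKM in IR64. It was higher in N22 there too, by 1.12 (SE 0.15, adjusted p 0.00155), and the difference between the contrasts was not called, at 1.25 (SE 0.21, adjusted p 0.0571).

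RAB16B (LOC_Os11g26780) had 707, 989 and 254 FPKM in N22 and 85.0, 172 and 26.6 FPKM in IR64 under drought, with no overlap. The difference was 2.92 (SE 0.18, adjusted p 3.88e-05). It too was higher in N22 in water, with 2.41, 2.19 and 0.801 FPKM against 0.306, 0.305 and 0.177 FPKM in IR64 and a difference of 1.096 (SE 0.18, adjusted p 0.00461). The contrasts differed by 1.83 (SE 0.26, adjusted p 0.0368). At these low water levels that value depended on the pseudocount. With 0.1 in place of 1 the water difference was 2.28, and the contrasts differed by 0.67 (adjusted p 0.412). For the other 2 members of the cluster the water values gave no call. RAB16C (LOC_Os11g26760) had 237, 381 and 87.7 FPKM in N22 under drought, against 44.2, 66.2 and 22.2 FPKM in IR64. The groups lay apart and differed by 2.28 (SE 0.12, adjusted p 1.84e-05). In water it stood at 0.456, 0.597 and 0.521 FPKM in N22 and 0.957, 1.28 and 0.754 FPKM in IR64, a difference of -0.38 with the opposite sign. The contrasts differed by 2.66 (SE 0.17, adjusted p 0.00433).

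RAB16D (LOC_Os11g26750) gave the largest difference of the list. It had 466, 545 and 142 FPKM in N22 and 58.6, 65.8 and 19.5 FPKM in IR64 under drought, and every N22 value was above the highest IR64 value. The difference was 2.93 (SE 0.099, adjusted p 2.29e-06). In water it was below 1 FPKM in all libraries, with 0.262, 0.462 and 0.0429 FPKM in N22 and 0.0912, 0.0678 and 0.0455 FPKM in IR64, and the contrasts differed by 2.71 (SE 0.14, adjusted p 0.0032). With a pseudocount of 0.1 the contrasts differed by 2.085 (adjusted p 0.115), which was not called.

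The group 3 LEA genes followed the same order. OsLEA3 (LOC_Os05g46480), on chromosome 5, had 2067, 2992 and 959 FPKM in N22 under drought and 546, 863 and 198 FPKM in IR64. The groups lay apart and differed by 1.99 (SE 0.28, adjusted p 0.00186). In water its values overlapped, with 11.3, 6.23 and 2.39 FPKM in N22 and 5.04, 6.86 and 4.18 FPKM in IR64, and the difference of the contrasts, 1.90 (SE 0.40, adjusted p 0.0984), was not called. WSI18 (LOC_Os01g50910), on chromosome 1, a gene named for its induction by water stress, had 720.0, 1123 and 266 FPKM in N22 and 170.5, 216 and 76.7 FPKM in IR64 under drought. It differed by 2.07 (SE 0.15, adjusted p 7.62e-05) under drought and by 0.63 in water. LEA3-2 (LOC_Os03g20680), on chromosome 3, had 66.2, 134 and 26.2 FPKM in N22 and 15.3, 28.5 and 4.72 FPKM in IR64. The N22 library numbered 3 lay below the IR64 library numbered 2, so the groups overlapped, while each N22 library was above the IR64 library of its own number. The difference was 2.16 (SE 0.095, adjusted p 7.73e-06).

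OsEM1 (LOC_Os05g28210), a group 1 LEA gene on chromosome 5 best known from ripening seeds, was listed in none of the 6 water files. Under drought it had 47.9, 74.4 and 15.8 FPKM in N22 and 7.86, 8.74 and 1.31 FPKM in IR64, with no overlap and a difference of 2.76 (SE 0.11, adjusted p 4.6e-06). The acidic dehydrin DIP1 (LOC_Os02g44870) was the exception in the list. It was abundant in all 6 drought libraries, with 958, 1131 and 502 FPKM in N22 and 499, 697 and 309 FPKM in IR64. Its groups overlapped, and the difference of 0.78 (SE 0.17, adjusted p 0.0124) stayed below 1. In water it stood at 96.5, 149.9 and 116 FPKM in N22 and 80.0, 101 and 153 FPKM in IR64, far above the other 8 genes.

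Tests of the difference of the contrasts called 6 of the 9 LEA genes, RAB16B, RAB16C, RAB16D, LEA3-2, OsEM1 and WSI18, against 0.562% of all rows. None of the 6 was called there with no pair block, where the adjusted p ran from 0.218 to 0.853. Nor was any of them called with 1 block shared by both treatments, where the adjusted p ran from 0.0913 to 0.501. Their differences between the contrasts ran from 1.45 to 2.76. OsEM1 was set to 0 in all 6 water libraries, so its difference of the contrasts only repeats its drought difference. With a pseudocount of 0.1, RAB16B, RAB16D, LEA3-2 and WSI18 were not called there (adjusted p 0.412, 0.115, 0.0734 and 0.108).

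**Figure D3:**
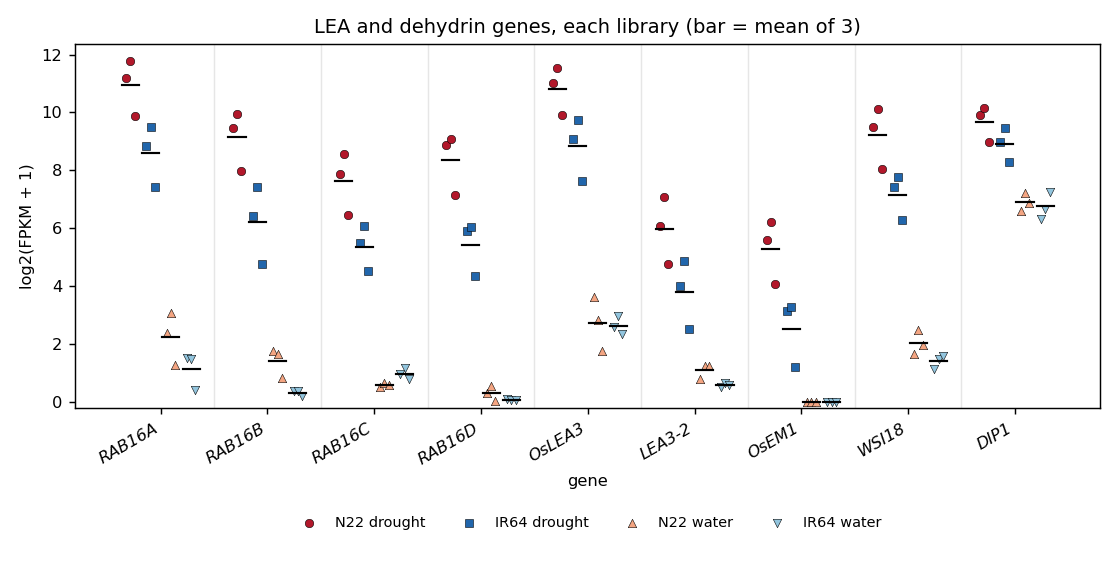
log2(FPKM + 1) of the 9 LEA and dehydrin genes in each of the 12 libraries (points within a group from left to right are numbered 1 to 3, bars are means of 3). Under drought the N22 points lie above the IR64 points in 7 genes and overlap them in LEA3-2 and DIP1, and the libraries numbered 3 are the lowest in each drought group.

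Of 8 tested genes of ABA synthesis and breakdown, 1 was called, higher in N22, against 3.75% of all rows called higher. In 7 of the 8 genes the difference was above 0. Their median difference was 0.77 under drought and 0.09 in water. ZEP1 (LOC_Os04g37619) encodes zeaxanthin epoxidase, an early step of ABA synthesis. It had 85.3, 77.3 and 46.0 FPKM in N22 and 45.1, 41.2 and 25.6 FPKM in IR64, groups that lay apart, and differed by 0.87 (SE 0.054, adjusted p 3.89e-05), short of 1. NCED enzymes cleave the carotenoid precursor, the committed step of ABA synthesis. NCED3 (LOC_Os03g44380) had 31.4, 38.5 and 18.21 FPKM in N22 and 15.3, 28.6 and 8.79 FPKM in IR64, which overlapped, with a difference of 0.79 (SE 0.12, adjusted p 0.00302). NCED4, NCED5 and NCED1 differed by 0.75, 0.32 and 0.12, with adjusted p of 0.0818, 0.221 and 0.448.

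The enzymes that break ABA down are the 8'-hydroxylases. ABA8ox3 (LOC_Os09g28390) was the called gene of the list, with 5.06, 6.94 and 3.85 FPKM in N22 and 1.45, 2.07 and 2.72 FPKM in IR64, no overlap and a difference of 1.02 (SE 0.23, adjusted p 0.0143). That call was lost without the pair numbered 1 (0.88, adjusted p 0.0843), without the pair numbered 2 (0.84, adjusted p 0.0721) and under quantile scaling (0.965). ABA8ox2 (LOC_Os08g36860) was more abundant, with 98.5, 114 and 62.7 FPKM in N22 and 51.3, 56.8 and 39.7 FPKM in IR64 under drought. These groups lay apart and differed by 0.86 (SE 0.092, adjusted p 0.000527), below the minimum of 1. In water it was at 6.47, 6.90 and 7.58 FPKM in N22 and 8.71, 8.26 and 7.96 FPKM in IR64, and the contrasts differed by 1.08 (SE 0.13, adjusted p 0.0217). That call was lost with no pair block (adjusted p 0.228) and with 1 block shared by both treatments (adjusted p 0.157). ABA8ox1 was not called, with 101, 77.9 and 133 FPKM in N22 and 168, 40.1 and 335 FPKM in IR64, a wide overlap and a difference of -0.37 (SE 0.45, adjusted p 0.563).

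Among the PYL receptors, 1 of 6 tested was called, lower in N22, against 3.02% of all rows called lower. PYL6 (LOC_Os03g18600) had 13.9, 18.02 and 29.8 FPKM in N22 and 27.5, 46.0 and 71.2 FPKM in IR64 under drought. Each N22 library was below the IR64 library of its number, although the groups overlapped, and the difference was -1.16 (SE 0.098, adjusted p 0.000171). In water there was no such gap, with 60.5, 45.9 and 39.4 FPKM in N22 against 55.5, 54.0 and 44.0 FPKM in IR64, and the contrasts differed by -1.07 (SE 0.14, adjusted p 0.0287). The call for the contrasts was lost with no pair block (adjusted p 0.722) and with 1 block shared by both treatments (adjusted p 0.567). With no pair block, the drought call was lost without N22 number 1 or 2 and without IR64 number 2 or 3 (adjusted p 0.0626 to 0.114). The other 5 tested receptors differed by -0.18 to 0.25 under drought. PYL3 and PYL4 lay below the filter on low values.

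The clade A PP2C phosphatases, which hold the ABA signal off until a receptor binds them and are themselves raised by ABA, were all nominally higher in N22. Of 9 tested, 4 were called higher and none lower, against 3.75% of all rows called higher. The median difference was 0.95 under drought, against 0.002 over all rows, and -0.01 in water. The test of the difference of the contrasts called 0 of the 9. In water the 9 differences ran from -0.11 (PP2C30) to 0.59 (PP2C06). The number called was 2 with no pair block, 2 without the pair numbered 1, 6 without the pair numbered 2, 3 without the pair numbered 3 and 3 with quantile scaling. The 6 drought libraries alone with no block gave 0 calls, and fits with no block and a single drought library left out gave 0 (without N22 number 2 or IR64 number 3) to 4 (without N22 number 3). Under median-of-ratios and quantile scaling all 9 differences stayed above 0.

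PP2C06 (LOC_Os01g40094) had 188, 207 and 109 FPKM in N22 and 80.6, 96.5 and 49.1 FPKM in IR64. It was the only one of the 9 whose groups lay apart, and it differed by 1.15 (SE 0.078, adjusted p 5.98e-05). PP2C09 shares its row with 2 other loci. That row had 394, 373 and 159 FPKM in N22 and 140.4, 184 and 56.1 FPKM in IR64, which overlapped, with a difference of 1.33 (SE 0.11, adjusted p 0.000176). PP2C30 (LOC_Os03g16170) had 292, 333 and 128 FPKM in N22 and 131, 198 and 57.9 FPKM in IR64. It overlapped, differed by 1.01 (SE 0.14, adjusted p 0.002) and was not called with no pair block (adjusted p 0.16), nor without the pair numbered 1 (0.94) or 3 (0.95) or with quantile scaling (0.92). PP2C51 (LOC_Os05g49730) had 50.9, 37.9 and 17.401 FPKM in N22 and 17.92, 24.6 and 6.31 FPKM in IR64, a difference of 1.13 (SE 0.16, adjusted p 0.0021), with an adjusted p of 0.0954 without the block and a difference of 0.97 without the pair numbered 1. The other 5 ranged from 0.19 (PP2C53) to 0.95 (PP2C49), and PP2C49 and PP2C68 passed 1 without the pair numbered 2 (1.13 and 1.08).

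By limma no SnRK2 kinase was called under drought among 10 tested, and the median difference was -0.03. Before adjustment 5 of the 10 had a p below 0.05, as did 9845 of all 22944 rows. SAPK2, the most abundant, had 376, 309 and 413 FPKM in N22 and 422, 309 and 452 FPKM in IR64. These overlapped, with a difference of -0.10 (SE 0.076, adjusted p 0.351). SAPK5 (LOC_Os04g59450) was below its IR64 level in each N22 library of both treatments. It had 48.9, 50.3 and 41.8 FPKM in N22 and 84.9, 90.7 and 77.8 FPKM in IR64 under drought, a difference of -0.83 (SE 0.051, adjusted p 3.58e-05) that fell short of the minimum size. In water it was called lower, at -1.15 (SE 0.051, adjusted p 7.94e-06), with 46.8, 41.6 and 39.7 FPKM in N22 and 105, 92.8 and 90.7 FPKM in IR64. SAPK1 differed the other way by 0.93 (SE 0.057, adjusted p 3.69e-05) without a call. With no pair block it was called higher without N22 number 3 (1.26) and without IR64 number 2 (1.17).

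Of 20 drought-related transcription factors, 2 were called higher in N22 and none lower, against 3.75% of all rows called higher. Both were of the HD-Zip class whose genes respond to water deficit. Over the list the median difference was 0.23, against 0.002 over all rows, and 16 of 20 were above 0, as under both other scalings. The number called was 0 with no pair block, 1 without the pair numbered 1, and 3 without the pair numbered 2 or 3. HOX24 (LOC_Os02g43330) had 304, 429.8 and 93.5 FPKM in N22 and 98.7, 198 and 28.2 FPKM in IR64 under drought, and stayed below 1 FPKM in all 6 water libraries. The groups overlapped, every pair differed in the same direction, and the difference was 1.47 (SE 0.12, adjusted p 0.000156). HOX22 (LOC_Os04g45810) had 234, 258 and 86.9 FPKM in N22 and 84.5, 135 and 54.0 FPKM in IR64 with a difference of 1.02 (SE 0.21, adjusted p 0.00947). Neither was called with no pair block, where the adjusted p was 0.142 for HOX24 and 0.126 for HOX22. HOX22 also lost its call without the pair numbered 1 (0.81, adjusted p 0.0557) and with quantile scaling (0.98). The ABA-responsive bZIP factors came close, bZIP46 at 0.98 (SE 0.084, adjusted p 0.000176) and bZIP12 at 0.85 (SE 0.11, adjusted p 0.0011), both with groups that lay apart. Without the pair numbered 3 bZIP46 passed 1, at 1.09. The NAC factor SNAC1, known for raising drought tolerance when overexpressed in rice, had 576, 668 and 329.8 FPKM in N22 and 307, 414 and 197 FPKM in IR64, a difference of 0.78 (SE 0.15, adjusted p 0.00734). NAC6, of the same family, differed by 0.27 (SE 0.15, adjusted p 0.216) and the dehydration-responsive DREB2A by 0.16 (SE 0.17, adjusted p 0.495).

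**Figure D4:**
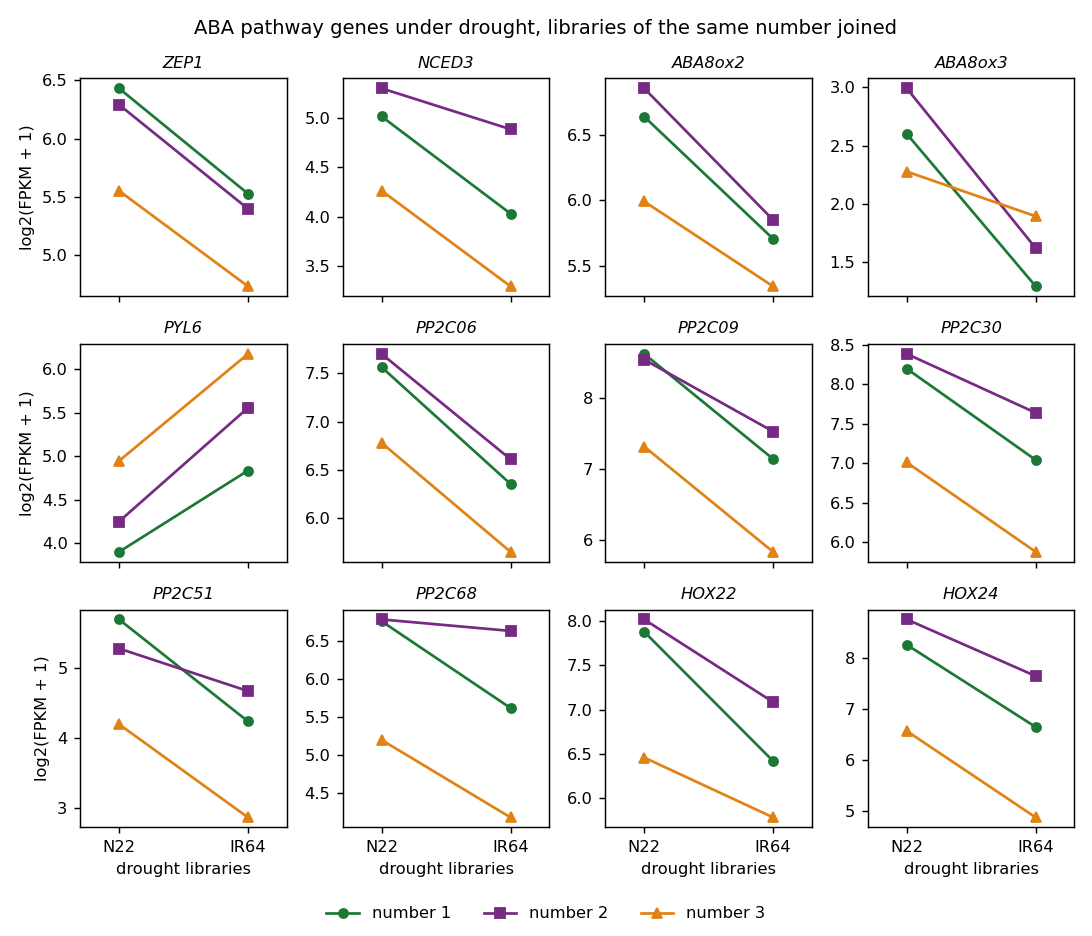
log2(FPKM + 1) of 12 genes of ABA synthesis, breakdown, signalling and response in the 6 drought libraries, N22 on the left and IR64 on the right of each panel, with libraries of the same number joined; the vertical axes differ between panels. The lines of a panel run mostly in parallel, with number 3 lowest in most panels and highest in PYL6, where all 3 lines climb towards IR64.

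Genes for osmotic protectants gave 1 call among 11 tested, higher in N22, against 3.75% of all rows called higher. GolS1 (LOC_Os03g20120), which encodes galactinol synthase, the entry to the raffinose sugars, had 190.2, 239 and 127 FPKM in N22 and 79.6, 137 and 45.4 FPKM in IR64. The N22 library numbered 3 lay below the IR64 library numbered 2. The difference was 1.17 (SE 0.20, adjusted p 0.00437). The call was lost in the 6 drought libraries alone with no block. With no pair block it was also lost without N22 number 1 or 2 and without IR64 number 1 or 3. GolS2 differed by 0.87 (SE 0.13, adjusted p 0.00247). P5CS1 and P5CS2, the rate-limiting enzymes of proline synthesis, differed by 0.37 (SE 0.083, adjusted p 0.0131) and 0.58 (SE 0.076, adjusted p 0.00135). Proline dehydrogenase, ProDH, which breaks proline down, was at 15.5, 18.01 and 31.9 FPKM in N22 and 25.96, 22.3 and 50.6 FPKM in IR64, a difference of -0.55 (SE 0.13, adjusted p 0.0157) without a call.

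Among heat shock genes 1 of 11 tested was called, higher in N22, against 3.75% of all rows called higher. HSP101 (LOC_Os05g44340), a chaperone that dissolves protein aggregates, had 17.88, 21.6 and 10.1 FPKM in N22 and 6.80, 8.81 and 4.72 FPKM in IR64. The groups lay apart and differed by 1.15 (SE 0.094, adjusted p 0.000146). In water it differed by 0.73. The drought call was lost in the 6 drought libraries alone with no block, and with no pair block without N22 number 2 or IR64 number 3. The vacuolar sodium/proton exchanger NHX1 (LOC_Os07g47100) was the called gene of 6 for ion and silicon transport, higher in N22, against the same 3.75%. It had 41.9, 61.6 and 21.7 FPKM in N22 and 19.1, 31.5 and 10.2 FPKM in IR64 and a difference of 1.02 (SE 0.070, adjusted p 6.13e-05), with overlap. That call was lost with no pair block (adjusted p 0.0923), without the pair numbered 1 (0.98) and with quantile scaling (0.98).

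The aquaporins, water channels of the plasma membrane (PIP) and the vacuole (TIP), gave no call by limma among 15 tested. Of these, 12 had a p below 0.05 before adjustment, against 9845 of all 22944 rows. Of the 15, 12 were above 0, and the median difference was 0.32 under drought and 0.19 in water. TIP1;1, the most abundant, had 2119, 2348 and 1518 FPKM in N22 and 1427, 1945 and 973 FPKM in IR64, which overlapped, and a difference of 0.49 (SE 0.11, adjusted p 0.0126). PIP2;7 was nominally lower, with 78.4, 62.5 and 246 FPKM in N22 and 182, 159 and 294 FPKM in IR64 and a difference of -0.93 (SE 0.20, adjusted p 0.0105). It was called lower without the pair numbered 3 (-1.27) and with quantile scaling (-1.03). The cold- and stress-responsive DREB1 factors gave no call among 6 rows, and 0 had a p below 0.05 before adjustment. DREB1C was called higher without the pair numbered 3 (1.27) and with array weights (1.09). DREB1A and DREB1B share a row, which had 47.6, 72.0 and 115 FPKM in N22 and 61.5, 39.3 and 323 FPKM in IR64. The libraries numbered 3 were the highest in both cultivars, and the groups overlapped.

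Of 7 tested root markers, 2 were called lower in N22 under drought and none higher, against 3.02% of all rows called lower. The median difference was -0.59 under drought and -0.42 in water. In 4 of the 7 the N22 values lay wholly below those of IR64, against 13.9% of all rows. With a minimum of 5 FPKM, 5 root markers were tested and 0 were called. HKT2;1 (LOC_Os06g48810), a sodium transporter of roots, had 0.269, 1.197 and 0.183 FPKM in N22 and 2.96, 2.99 and 1.84 FPKM in IR64, apart, with a difference of -1.25 (SE 0.15, adjusted p 0.000876). It was also lower in N22 in water, with 0.0642, 0.0552 and 0.0243 FPKM against 3.89, 4.02 and 3.22 FPKM in IR64 and a difference of -2.16 (SE 0.15, adjusted p 6.85e-05). AMT1;2 (LOC_Os02g40710), an ammonium transporter, had 0.276, 0.349 and 0.684 FPKM in N22 and 2.06, 1.48 and 2.33 FPKM in IR64. It differed by -1.04 (SE 0.15, adjusted p 0.00227), and by -0.93 without the pair numbered 1. The silicon channel Lsi1, the most abundant of the list, had 125, 187 and 178 FPKM in N22 and 244, 268 and 221 FPKM in IR64, with no overlap and a difference of -0.59 (SE 0.13, adjusted p 0.0117). The iron and manganese transporter genes IRT1 and NRAMP5 differed by 0.02 and -0.64, and RCc3 by 0.23.

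The summed FPKM of all 8 root markers ran from 286 to 475 in N22 and from 423 to 534 in IR64 under drought, and from 536 to 700.2 in N22 and from 592 to 640.0 in IR64 in water. No root marker was at 0 in any group. The labels give no organ, and fewer cells of a type and less RNA per cell cannot be told apart. The sum of 17 green tissue markers overlapped between the cultivars under drought, at 5638 to 12482 FPKM in N22 and 7170.5 to 8661 FPKM in IR64. So did the sum of 12 markers of dividing cells, at 38.9 to 134 FPKM in N22 and 55.6 to 105 FPKM in IR64. The part of root share in the differences reported here was not tested.

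Genes of nitrogen uptake and assimilation gave 2 calls among 9, both lower in N22, against 3.02% of all rows called lower. AMT1;3 (LOC_Os02g40730), an ammonium transporter, had 6.19, 7.53 and 10.7 FPKM in N22 and 20.0, 17.2 and 20.1 FPKM in IR64, apart, with a difference of -1.16 (SE 0.13, adjusted p 0.000621). GS1;2 (LOC_Os03g12290), a cytosolic glutamine synthetase, had 62.3, 76.1 and 96.1 FPKM in N22 and 174, 126 and 190.2 FPKM in IR64, apart, and differed by -1.06 (SE 0.13, adjusted p 0.00112). Without the pair numbered 1 both fell short of 1, at -0.97 for AMT1;3 and -0.85 for GS1;2. In water they differed by -0.66 (SE 0.13, adjusted p 0.00964) and -0.51 (SE 0.13, adjusted p 0.0311), neither called. The nitrate reductase gene NIA1 was nominally higher in N22 under drought, by 0.48 (SE 0.13, adjusted p 0.0288), and called higher in water, by 1.203 (SE 0.13, adjusted p 0.000619).

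Among the remaining called members, PR1b, PR1a, APX5, SD1 and Pib were called in water in the same direction as under drought, and PBZ1 was not (-0.96 (SE 0.17, adjusted p 0.00605)). The pathogenesis-related gene PR1b (LOC_Os01g28450) was the most different member of any list. It had 30.4, 24.9 and 82.0 FPKM in N22 and 1.88, 1.25 and 4.65 FPKM in IR64 under drought, far apart, with a difference of 3.62 (SE 0.20, adjusted p 2.05e-05). In water it had 41.7, 45.4 and 73.2 FPKM in N22 and 5.20, 7.78 and 5.59 FPKM in IR64, a difference of 2.89 (SE 0.20, adjusted p 6.16e-05). Its relative PR1a (LOC_Os07g03710) ran the other way, with 43.8, 36.6 and 28.4 FPKM in N22 and 89.9, 162 and 101 FPKM in IR64 under drought. It was lower in N22, with a difference of -1.65 (SE 0.31, adjusted p 0.00623) under drought and -2.05 (SE 0.31, adjusted p 0.00279) in water. PBZ1 (LOC_Os12g36880), another pathogenesis-related gene, had 157, 132 and 350.2 FPKM in N22 and 288, 341 and 659.8 FPKM in IR64 under drought, overlapping, with a difference of -1.05 (SE 0.17, adjusted p 0.00342). PBZ1 was not called with no pair block (adjusted p 0.133), with array weights (-0.96) or without the pair numbered 2 (-0.89). Defence regulators such as WRKY45 (-0.63) and NPR1 (0.02) were not called.

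The ascorbate peroxidase gene APX5 (LOC_Os12g07830) was the called gene of 15 antioxidant enzymes, higher in N22, against 3.75% of all rows called higher. It had 3.54, 2.11 and 4.24 FPKM in N22 and 0.2995, 0.270 and 0.214 FPKM in IR64 under drought, and 6.18, 4.92 and 5.69 FPKM in N22 and 0.492, 0.389 and 0.281 FPKM in IR64 in water. The groups lay apart in both treatments, with differences of 1.74 (SE 0.16, adjusted p 0.00024) and 2.25 (SE 0.16, adjusted p 7.27e-05). SD1 (LOC_Os01g66100) encodes a gibberellin 20-oxidase, and IR64 is a semidwarf that carries a mutant allele of it. SD1 had 5.70, 9.63 and 8.68 FPKM in N22 and 2.21, 4.58 and 3.49 FPKM in IR64, with no overlap and a difference of 1.03 (SE 0.13, adjusted p 0.00112). The difference in water was 1.19 (SE 0.13, adjusted p 0.000658). Under drought it came to 0.98 with quantile scaling and to 0.996 without the pair numbered 3, below the minimum. The row of the blast resistance gene Pib, which holds 2 loci of a large family of similar genes, had 9.46, 9.27 and 9.07 FPKM in N22 and 3.51, 2.95 and 2.56 FPKM in IR64. The groups lay apart, and the difference was 1.36 (SE 0.080, adjusted p 2.93e-05) under drought and 1.48 (SE 0.080, adjusted p 1.97e-05) in water.

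**Figure D5:**
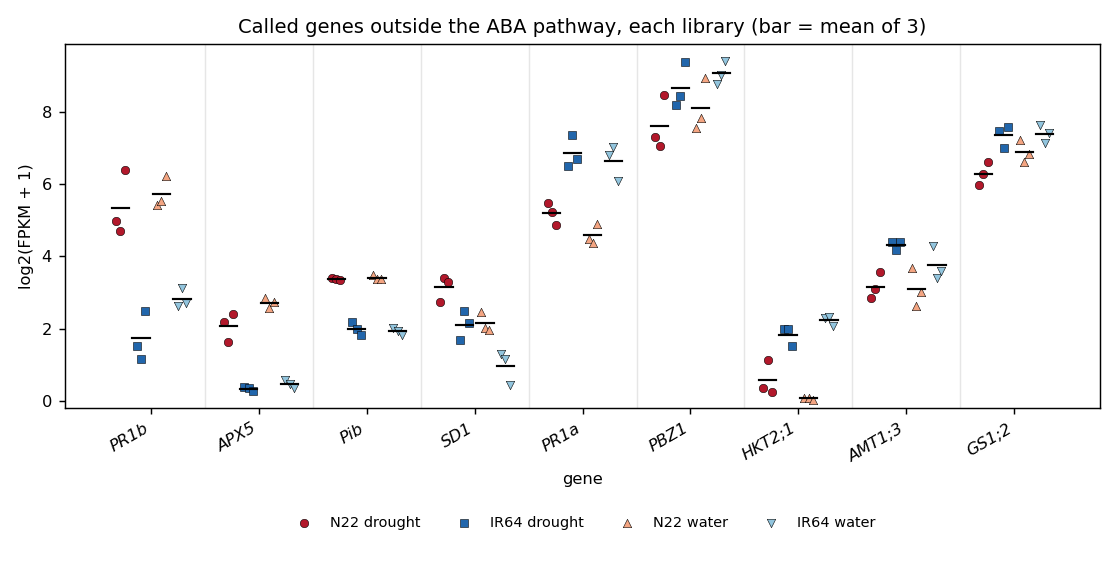
log2(FPKM + 1) of 9 called genes outside the ABA pathway in each of the 12 libraries (points within a group are numbered 1 to 3 from left to right, bars are means of 3). PR1b, APX5, Pib and SD1 are higher and PR1a, PBZ1, HKT2;1, AMT1;3 and GS1;2 lower in N22 than in IR64 under drought, and PBZ1 overlaps.

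Several groups that PEG is known to affect gave no cultivar call. Of 17 photosynthesis genes limma called none, with a median difference of 0.07 under drought and 7 at a p below 0.05 before adjustment. Such a p was found in 9845 of all 22944 rows, so counts at that p do not by themselves set a group apart. RBCS3, for the small subunit of Rubisco, was the most abundant and differed by -0.07 (SE 0.25, adjusted p 0.862). None of 13 replication and cell division genes was called (median -0.03, 1 at a p below 0.05 before adjustment), nor any of 10 expansins, which loosen cell walls (median 0.39, 3 at such a p). Among the expansins EXPB11 had 26.2, 30.2 and 51.1 FPKM in N22 and 23.8, 21.3 and 5.67 FPKM in IR64. The IR64 library numbered 3 was far below the others, and the difference of 1.19 (SE 0.49, adjusted p 0.106) was not called. With no pair block it was called without IR64 number 1 (1.535) or 2 (1.46). The most abundant expansin, EXPB4, differed by 0.23. No call was made either among chlorophyll genes (4 of 8 tested had a p below 0.05 before adjustment), jasmonate genes (6 of 20), circadian clock genes (6 of 10), flowering genes (0 of 5), diterpenoid phytoalexin genes (4 of 7), phenylalanine ammonia-lyases (4 of 4 rows), wax genes (3 of 5), type-A response regulators (2 of 6) and common reference genes (2 of 5). Leaving out a pair gave calls in these groups for the expansin gene EXPA3 (1.15) and PAL4 (-1.07) without number 1, for the diterpenoid gene CPS2 (-1.13) and the wax gene GL1-2 (-1.01) without number 2, and for GL1-2 (-1.08) and the response regulator gene RR9 (-1.01) without number 3. Their most abundant members were NYC1 (0.32), JAZ7 (-0.14), GI (0.27), PHYB (-0.11), KSL7 (0.08), the row of PAL1 with 3 other loci (-0.28), GL1-1 (0.25), RR10 (-0.61) and UBQ10 (-0.60), each the difference N22 minus IR64 under drought. UBQ10, often used as a reference gene, had an adjusted p of 0.00298 for its difference.

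Outside the lists the largest differences were those of rows nearly silent in 1 of the 2 cultivars. LOC_Os11g14544 had 256, 389 and 177 FPKM in N22 and 0.315, 0.249 and 0.217 FPKM in IR64 under drought, a difference of 7.70 (SE 0.20, adjusted p 8.06e-07), and differed by 6.58 in water. The unnamed row XLOC_024183 had 53.5, 64.4 and 38.7 FPKM in N22 and 0.0268, 0.0773 and 0.109 FPKM in IR64, a difference of 5.61 (SE 0.15, adjusted p 1.01e-06). In the other direction, the unnamed row XLOC_035543 had 0.0439, 0.110 and 0.0833 FPKM in N22 and 191, 257 and 174 FPKM in IR64, a difference of -7.57 (SE 0.14, adjusted p 2.38e-07). LOC_Os12g02660 had 0.868, 1.05 and 0.814 FPKM in N22 and 166, 134 and 141 FPKM in IR64, a difference of -6.27 (SE 0.12, adjusted p 2.35e-07). All 4 were called in water in the same direction, and the tables do not pair them with a product.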

How the data were processed

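RNA sequencing values of 12 seedling libraries were used, grouped and numbered by the sample labels. Per the submitters' processing notes and the design text of the series, the authors filtered reads with NGSQC Toolkit 2.3.3, aligned them to RGAP 7.0 with TopHat 2.1.1 and bowtie 2.3.3.0, and estimated FPKM with Cufflinks 2.2.1. The design text also names missForest for filling missing values and edgeR for the authors' own comparison, which is not used here. It does not say whether the deposited FPKM hold filled values. Rows were matched by identifier (39718 in any library, 25730 in all 12), 2467 of them with no locus name and 1331 naming several loci. Absent rows were set to 0, although an absent row may be a failed estimate. Whole reads could not be recovered (1.49% to 11.2% of ratios of low values lay within 1% of the commonest ratio), so depth is unknown, and values were not scaled further.

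The test took 24545 rows that reached 1 FPKM in 2 replicates of some group. The limma fit (version 3.58.1, R 4.3.3) to log2(FPKM + 1) of all 12 libraries held cultivar effects in each treatment, the replicate number within treatment as a block, and an intensity trend. Tests were two-sided and adjusted by Benjamini-Hochberg over all rows tested. Same-numbered N22 and IR64 libraries deviated together from their group means (correlations of 0.356, 0.525 and 0.592 under drought and 0.418, 0.410 and 0.158 in water, numbers 1 to 3, all above 0.1). Differently numbered libraries had correlations of -0.525 to 0.187 under drought and -0.417 to 0.0636 in water. The label numbers were used as pairs because the comparison was set up that way. The fit was run on simulated data in which pairs shared an effect and both treatments had the same spread. As both were built in, that run cannot show whether pairing by label number or pooling the treatments suits these libraries. Tables were read with pandas 2.3.3 in Python 3.11.15 and data.table (version 1.17.8), and plots drawn with matplotlib 3.10.9.

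The comparison, the 29 gene lists and the tests were chosen with earlier results of these data known. Of the 313 symbols in the lists, 216 were found in the gene list of another rice assembly (ASM3414082v1), and the chromosome matched for 214. The other 2 (CYP76M7 and UBQ5) were dropped and 2 (Ehd1 and GS3) were in no file, leaving 309, of which 18 shared a row. Below the filter were 18 members, of which 1 is not reported here and the others were PYL3, PYL4, PIP2;8, NRT2.1, HSP16.9B, HSP16.9C, HSP26.7, Ghd7, Hd3a, Wx, ALK, DRO1, Rc, PROG1, SH4, S5 and PAL8. From each list up to 3 members called in each direction with the largest difference were to be named, or, in a list with no call, its most abundant member, with the LEA, ABA and PP2C lists in full, and outside the lists the 2 rows with the largest difference each way. Further members named without a call were chosen after their values were seen. Alternatives were no pair block, 1 block shared by both treatments, the 6 libraries alone, a pseudocount of 0.1, no filter or a minimum of 5 FPKM, summed rows of the same name, array weights, no trend, calls by adjusted p alone, quantile or median-of-ratios scaling, and leaving out pairs or single libraries.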

Additional observations from a re-analysis of the deposited data

Results flagged for a closer look

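For 9 genes of the lists the cultivar difference (N22 minus IR64) itself differed between PEG and water, by limma's test of the difference of the contrasts with the pair block and Benjamini-Hochberg adjustment over all rows. In 8 of them the difference of the contrasts was positive. Over all rows the test called 0.562%. The dehydrin genes RAB16B, RAB16C and RAB16D had differences of the contrasts of 1.83, 2.66 and 2.71, the LEA genes LEA3-2, OsEM1 and WSI18 of 1.66, 2.76 and 1.45, the ABA hydroxylase gene ABA8ox2 of 1.08 and the HD-Zip gene HOX24 of 1.62 on the log2(FPKM + 1) scale. The receptor gene PYL6 went the other way, at -1.07. Adjusted p ran from 0.0032 to 0.0405. None of the 9 was called with no pair block, where the adjusted p ran from 0.218 to 0.933. Nor was any called with 1 block shared by both treatments, where the adjusted p ran from 0.0913 to 0.583. Of 16 alternatives, 14 called RAB16C and OsEM1, 13 called RAB16D and LEA3-2, 9 called HOX24, 8 called ABA8ox2, 7 called WSI18 and PYL6, and 6 called RAB16B. With a pseudocount of 0.1, RAB16B (0.67, adjusted p 0.412), RAB16D (2.085, adjusted p 0.115), LEA3-2 (1.25, adjusted p 0.0734) and WSI18 (1.22, adjusted p 0.108) were not called. OsEM1, set to 0 in all 6 water libraries, repeats its drought difference.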

How the results depend on the processing

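Counts are rows called of those listed in all 6 drought files. Under drought 860 were higher in N22 and 694 lower. With a pseudocount of 0.1 these became 1358 and 1093, and with the adjusted p alone and no minimum difference 3939 and 3558. All other alternatives, including every fit that left out a pair or a single library, stayed within 1.5 times of both counts. In water 650 were higher and 661 lower. A pseudocount of 0.1 gave 1012 higher, and the adjusted p alone gave 2665 higher and 2908 lower. The difference of the contrasts moved most. Its 116 positive calls became 24 with no replicate block, 23 with 1 replicate block shared by drought and water, 67 with a pseudocount of 0.1, 40 with no filter and 266 with array weights, and 31 to 237 without 1 pair of libraries. Its 13 negative calls became 4 with no replicate block, 6 with the shared block, 1 with no filter, 64 with array weights, 20 with the adjusted p alone, and 0 to 71 without 1 pair. The causes were not tested.

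With no replicate block 788 of the 860 rows and 634 of the 694 were still called under drought. Of the 33 called genes named in the text, that fit lost 6 (PP2C30, PP2C51, HOX22, HOX24, NHX1 and PBZ1), quantile scaling 5, the shared block 3 and array weights 1. Median-of-ratios scaling, no filter, a pseudocount of 0.1, no trend, summed rows and leaving out any water pair lost none. The 6 drought libraries alone lost 0 with the replicate block and 18 without. Leaving out a pair under drought lost 2 to 8. With no replicate block and 1 drought library left out, 1 (N22 number 3), 4 (IR64 number 2), 12 (IR64 number 1), 15 (N22 number 1) or 16 (N22 number 2 or IR64 number 3) were lost. No named gene that was called in the main fit or in an alternative changed sign between them. Uncalled genes did, such as NCED5, at 0.32 in the main fit and -0.076 with no block and without IR64 number 3. With 3 libraries a group and unknown depth, counting error cannot be separated from other spread, and a row at 0 has no stated upper limit.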

Other observations

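Calls under drought were spread over abundance and over the genome. By mean FPKM of the 6 drought libraries, 8.21% of 3569 rows below 2 FPKM were called, 8.67% of 7777 rows from 2 to 10, 4.97% of 8741 rows from 10 to 50, 5.15% of 2505 rows from 50 to 250 and 6.82% of 352 rows above that. The log2(FPKM + 1) scale shrinks differences of the lowest rows. By chromosome, the share of rows called ran from 4.71% on chromosome 2 to 9.97% on chromosome 11, which held 49 rows higher and 59 lower in N22, with 9.08% on chromosome 12. The row after a called row along a chromosome was itself called in 15.0% of 1293 cases, against 6.21% after any row. It was called in the same direction in 10.1%. By direction, 3.75% of the 22944 rows were called higher and 3.02% lower. The figures by chromosome and by neighbour cover only the 20831 rows that name a single locus. The longest run of neighbouring rows called the same way held 4 rows.

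Of rows with no locus name that all 6 drought files list, 114 of 922 tested (12.4%) were called, against 6.77% of all rows these files list. Outside the ABA pathway, CPS2, a diterpenoid phytoalexin synthase gene, was at -0.997 and the wax gene GL1-2 at -0.99 (N22 minus IR64 under drought), just short of the minimum difference, and each passed it without the pair numbered 2, at -1.13 for CPS2 and -1.01 for GL1-2.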
